A study of Homo sapiens with 24 samples.

Results

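A set of 10 genes that mark the mesenchymal and the epithelial state of carcinoma cells were followed in human breast carcinoma lines in which TFAP2C, which encodes the transcription factor AP-2gamma, was knocked down. They are the matrix genes FN1, TNC and TGFBI, the intermediate filament gene VIM, the chromatin gene HMGA2, the transcription factor genes SNAI2 and ZEB1, and the epithelial adhesion genes CDH1, CDH3 and EPCAM. They were given by name, are 10 of 27431 gene symbols in the deposited tables, and all 10 were found there. The study asked which genes AP-2gamma controls in HER2-positive cells in relation to growth and invasiveness. It held 24 samples in 8 groups of 3, and 18 of the samples, in 6 groups, lie behind the 3 genome-wide tables used here. Each group was deposited as 1 pooled FPKM value per RefSeq transcript (fragments per kilobase of transcript, scaled to sequencing depth). Replicate spread is therefore not given for any level, and sequencing depth is unknown. Whether a group's 3 samples were grown separately is not stated, and the deposited p-values may then measure technical spread alone.

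The groups were as follows. SKBR3_siAP2C cells received a TFAP2C siRNA by lipofection, and SKBR3_siNT cells the negative control siRNA number 2. HCC1954_siAP2C and HCC1954_siNT cells received the same pair of siRNAs. Incubation after transfection was 72 to 96 h. HCC1954_shAP2C cells were stable clones carrying the lentiviral TFAP2C shRNA TRCN0000019745, and HCC1954_shNT cells carried the control construct SHC002. The number of clones per shRNA group is not stated. The lines were at passage 5 to 10 and were not authenticated by the submitters. For the HCC1954 siRNA table the columns give the siRNA alone, and the line was read from how the deposited table was named. In a HER2-positive line with siRNA, HCC1569, the deposited table lists 68 selected genes, of which 1 is among the 10: HMGA2, at 0.0211 FPKM after TFAP2C siRNA and 0.0386 FPKM in control cells, with no completed test.

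Epithelial cells hold together through cadherins, membrane proteins whose outer parts bind each other between neighbouring cells and whose tails bind catenins and, through them, actin. In epithelial-mesenchymal transition, a programme of development and wound repair that carcinoma cells can use in part, repressors of the SNAI and ZEB families bind E-boxes in epithelial genes such as CDH1, while vimentin, fibronectin and other mesenchymal products accumulate. Breast carcinoma lines differ widely along this axis, and mixed states are common.

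TFAP2C itself fell in each genome-wide comparison, to 53.9 FPKM in SKBR3_siAP2C against 157 FPKM in SKBR3_siNT, to 21.98 FPKM in HCC1954_siAP2C against 92.4 FPKM in HCC1954_siNT, and to 3.46 FPKM in HCC1954_shAP2C against 81.0 FPKM in HCC1954_shNT. The stable clones differed from their control across most of the transcriptome. Of 9564 genes tested there, 75.4% had a deposited q under 0.05, against 3.28% of 10773 with siRNA in HCC1954 and 33.3% of 9903 in SKBR3. Across 15065 genes with at least 1 FPKM in a group, Spearman's correlation of levels was 0.784 between HCC1954_shAP2C and HCC1954_shNT, 0.971 between SKBR3_siAP2C and SKBR3_siNT, and 0.950 between HCC1954_siAP2C and HCC1954_siNT. The correlation of HCC1954_shNT was 0.818 with HCC1954_siNT and 0.803 with SKBR3_siNT. HCC1954_shAP2C correlated less with the siRNA groups of its own line, at 0.658 with HCC1954_siAP2C and 0.659 with HCC1954_siNT, the lowest of all pairs of groups, than with SKBR3_siNT, at 0.7504. ERBB2, the HER2 gene, summed to 20.8 FPKM in HCC1954_shAP2C and 1525 FPKM in HCC1954_shNT. KRT19, a keratin of luminal cells, rose to 634 FPKM in HCC1954_shAP2C, against 19.9 FPKM in HCC1954_shNT. These differences stand beside every shRNA result below. The TFAP2C knockdown and a difference in cell population between the stable clones and their control cannot be told apart in these data. Breast epithelial markers fitted the lines only in part: KRT8 lay between 807 and 2137 FPKM in all 6 groups, while KRT19 was at 4.01 FPKM in HCC1954_siAP2C and 7.51 FPKM in HCC1954_siNT. Fibroblast markers, which could carry mesenchymal RNA, summed over 8 genes to 0.346 to 1.98 FPKM, with LUM at 0 in all 6 groups and 7 of 8 genes under 0.1 FPKM in each HCC1954 group. Of the endothelial markers VWF, KDR and TEK stayed at or below 0.412 FPKM, while PECAM1 was at 18.5 FPKM in HCC1954_siAP2C, 27.0 FPKM in HCC1954_siNT, 0.0180 FPKM in HCC1954_shAP2C and 11.6 FPKM in HCC1954_shNT. Among leukocyte markers, PTPRC and CD3E did not pass 0.0696 FPKM in any group, and CD68 lay between 4.64 and 36.6 FPKM. CD14 was at 2.05 FPKM in SKBR3_siAP2C and 0.324 FPKM in SKBR3_siNT, and at 0.441 FPKM in HCC1954_siAP2C and 0.426 FPKM in HCC1954_siNT. In the stable clones it was at 0.0863 FPKM in HCC1954_shAP2C and 1.11 FPKM in HCC1954_shNT. What PECAM1, CD68 or CD14 RNA has to do with the members' changes was not tested.

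Which members were called differed among the 3 comparisons. A gene is said to rise or fall if the authors' deposited table gave a q-value under 0.05 to its representative transcript, which is the RefSeq accession of highest FPKM when averaged across the 6 groups. In SKBR3, 2 of 3 tested members rose (FN1 and EPCAM) and 0 fell, against backgrounds of 12.3% rising and 21% falling among all tested genes, and 7 members had no completed test. With siRNA in HCC1954, 5 of 9 tested members rose (TNC, VIM, HMGA2, SNAI2 and TGFBI) and 0 fell, against backgrounds of 2.31% and 0.965%. With shRNA in HCC1954, 2 of 9 rose (HMGA2 and EPCAM) and 5 fell (FN1, TGFBI, VIM, CDH1 and CDH3), against backgrounds of 36.3% and 39.2%. At an unadjusted deposited p under 0.05, 0 members were lower in SKBR3 and 0 in HCC1954 with siRNA, where 6 were higher. The median log2 ratio of the tested members was 0.41 in SKBR3, 0.58 with siRNA and -3.41 with shRNA in HCC1954, beside -0.10, -0.0039 and -0.034 over all tested genes. Only 3 members were tested in all 3 comparisons, and of these 0 rose in all or fell in all. The share of all genes that did so was not computed. Because only genes with enough signal were tested, and the members were picked with earlier results known, these counts describe the genes and do not set them apart from others.

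**Figure D1:**
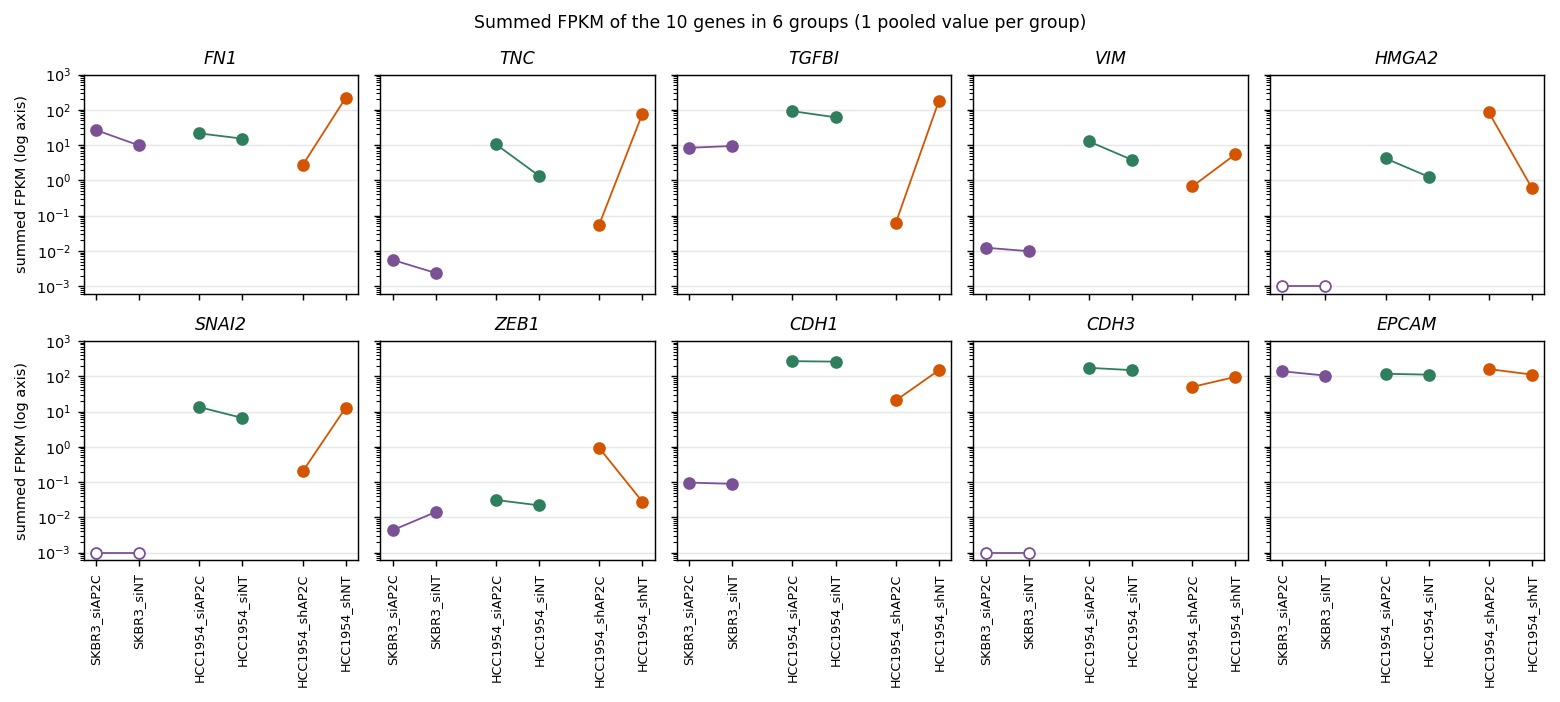
Summed FPKM (log axis) of the 10 genes in the 6 groups, each point 1 pooled value, with a line joining the knockdown group to the control group on its right. Open circles at the bottom mark groups listed at 0 (HMGA2, SNAI2 and CDH3 in SKBR3). HMGA2 reaches 84.4 FPKM in HCC1954_shAP2C, TGFBI drops to 0.0620 FPKM there, and EPCAM stays between 105 and 161 FPKM in all 6 groups.

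The matrix genes differed most between the HCC1954 controls and moved in different ways. FN1 (chromosome 2, 216225163 to 216300796 on the minus strand, GRCh37) encodes fibronectin, a secreted glycoprotein that integrins assemble into fibrils. Summed over its 10 transcripts it was at 26.6 FPKM in SKBR3_siAP2C and 9.75 FPKM in SKBR3_siNT, at 21.4 FPKM in HCC1954_siAP2C and 15.2 FPKM in HCC1954_siNT, and at 2.70 FPKM in HCC1954_shAP2C and 219.9 FPKM in HCC1954_shNT. The shRNA control is the group that stands out, 14.4-fold above the siRNA control of the same line, in tables normalized separately. By its representative transcript NM_002026, FN1 rose 3.23-fold in SKBR3 (log2 ratio 1.69 ± 0.56 SE, q = 4.41e-04 in the authors' deposited table). That transcript fell to 0.424 FPKM in HCC1954_shAP2C, against 87.0 FPKM in HCC1954_shNT (log2 ratio -7.68 ± 2.82 SE, q = 1.21e-04 in the authors' deposited table). In HCC1954 with siRNA it stood at 9.14 FPKM in HCC1954_siAP2C and 8.53 FPKM in HCC1954_siNT, which was not called (q = 0.962 in the authors' deposited table). Each standard error here and below is the log2 ratio divided by the deposited test statistic, unless it is said to come from p. That statistic does not match the deposited p as a normal score. A standard error and the q printed beside it can therefore disagree, and the calls rest on q alone.

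TNC (chromosome 9, 117781854 to 117880486, minus strand) encodes tenascin C, a large matrix glycoprotein of embryonic tissue, wounds and tumour stroma that modulates adhesion to fibronectin. Its single transcript was at 10.5 FPKM in HCC1954_siAP2C and 1.35 FPKM in HCC1954_siNT, a rise of 7.79-fold (log2 ratio 2.96 ± 0.39 SE, q = 4.25e-03 in the authors' deposited table). This was the largest change of any member with siRNA. In the stable clones TNC was at 0.0558 FPKM in HCC1954_shAP2C and 75.3 FPKM in HCC1954_shNT, a log2 ratio of -10.40 ± 1.45 SE. In spite of that size it was not called, with p = 0.0835 and q = 0.114 in the authors' deposited table. SKBR3 cells held next to none, at 0.00556 FPKM in SKBR3_siAP2C and 0.00237 FPKM in SKBR3_siNT. As with FN1, the 2 HCC1954 controls were far apart, with HCC1954_shNT 55.7-fold above HCC1954_siNT.

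TGFBI (chromosome 5, 135364677 to 135399507, plus strand) encodes a secreted protein induced by TGF-beta that binds collagens and integrins. It was the most abundant of the matrix members in HCC1954 with siRNA, at 91.5 FPKM in HCC1954_siAP2C and 61.3 FPKM in HCC1954_siNT, and rose 1.49-fold (log2 ratio 0.58 ± 0.30 SE, q = 4.25e-03 in the authors' deposited table). In the stable clones it fell to 0.0620 FPKM in HCC1954_shAP2C, against 177 FPKM in HCC1954_shNT. The log2 ratio of -11.48 had a standard error of 4.03, the widest among the members, and q = 3.20e-03 in the authors' deposited table. In SKBR3 it was at 8.37 FPKM in SKBR3_siAP2C and 9.44 FPKM in SKBR3_siNT, not called (q = 0.358 in the authors' deposited table). All 3 matrix genes were thus at their lowest of the HCC1954 groups in HCC1954_shAP2C and at their highest in HCC1954_shNT.

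Promoter windows of these matrix genes are shown so that their letters can be compared. Among the HCC1954 groups these genes are all lowest in HCC1954_shAP2C, as are VIM, SNAI2, CDH1 and CDH3. RefSeq windows (GRCh38.p14, 250 bases before to 50 after the gene's start) were searched for FN1, TGFBI, TNC, VIM and ZEB1, and were not used here for CDH1, CDH3, EPCAM, HMGA2 and SNAI2. Capitals mark matches to the AP-2 motif GCCNNNGGC, which is its own reverse complement, and to the SNAI and ZEB box CACCTG or CAGGTG, the same box read on either strand. The windows are chr2:215436019-215436318 (minus strand) for FN1, chr5:136028738-136029037 (plus strand) for TGFBI and chr9:115118108-115118407 (minus strand) for TNC.
FN1: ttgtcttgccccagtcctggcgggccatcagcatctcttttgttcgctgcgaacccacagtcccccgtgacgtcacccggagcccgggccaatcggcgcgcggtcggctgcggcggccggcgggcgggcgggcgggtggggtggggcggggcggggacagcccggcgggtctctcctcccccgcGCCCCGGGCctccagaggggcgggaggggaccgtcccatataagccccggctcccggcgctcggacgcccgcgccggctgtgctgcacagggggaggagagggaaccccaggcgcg
TGFBI: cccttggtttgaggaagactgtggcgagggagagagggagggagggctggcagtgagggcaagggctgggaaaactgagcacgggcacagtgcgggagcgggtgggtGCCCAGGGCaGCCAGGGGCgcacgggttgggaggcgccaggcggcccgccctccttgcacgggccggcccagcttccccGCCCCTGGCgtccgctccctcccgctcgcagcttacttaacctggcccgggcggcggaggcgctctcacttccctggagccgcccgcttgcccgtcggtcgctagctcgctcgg
TNC: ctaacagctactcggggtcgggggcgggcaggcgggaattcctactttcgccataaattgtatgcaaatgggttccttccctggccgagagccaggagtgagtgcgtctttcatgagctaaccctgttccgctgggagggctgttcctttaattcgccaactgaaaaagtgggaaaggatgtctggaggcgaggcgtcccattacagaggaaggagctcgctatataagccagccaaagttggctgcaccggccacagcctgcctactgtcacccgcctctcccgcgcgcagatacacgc
The TGFBI window held 3 matches to the AP-2 motif, starting at positions -143, -133 and -64 relative to the gene's start, and the FN1 window held 1, starting at -66. TNC had 0 matches to either motif, and so did VIM. Of 35116 RefSeq windows of this length, 23.2% held the AP-2 motif and 20.6% the SNAI and ZEB box. Among the 7 windows of ZEB1, 1 held the AP-2 motif and 2 the box, with 1 and 3 matches. A match describes the letters of a window and says nothing of binding, which was not measured.

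Fibronectin transcripts differed in their shares between groups. In SKBR3 all 3 tested transcripts rose. NM_212482 was at 6.54 FPKM in SKBR3_siAP2C and 0.668 FPKM in SKBR3_siNT, 24.6% and 6.85% of the gene's sum. NM_212476 was at 8.66 FPKM in SKBR3_siAP2C and 5.00 FPKM in SKBR3_siNT, 32.6% and 51.2% of the sum. With siRNA in HCC1954, NM_212482 was at 2.95 FPKM in HCC1954_siAP2C and 0.572 FPKM in HCC1954_siNT, which was not called (q = 0.671 in the authors' deposited table). All 4 tested transcripts fell with shRNA. Reads are split among transcripts by the authors' tool, and the shares were not tested.

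**Figure D2:**
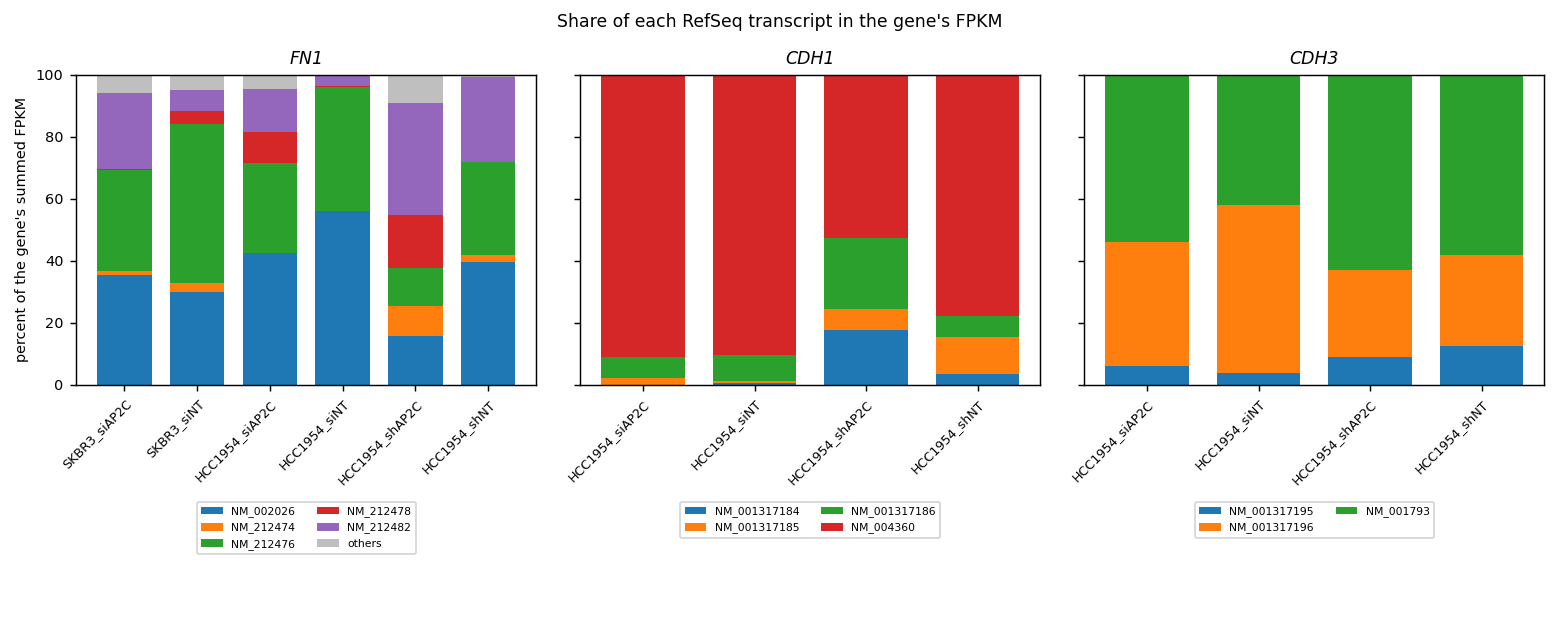
Share of each RefSeq transcript in the gene's summed FPKM (percent) for FN1, CDH1 and CDH3, in all 6 groups for FN1 and in the 4 HCC1954 groups for both cadherins, knockdown left of its control. In FN1, NM_212482 holds 24.6% in SKBR3_siAP2C and 6.85% in SKBR3_siNT, and in CDH1, NM_004360 holds 52.7% in HCC1954_shAP2C and 77.8% in HCC1954_shNT.

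VIM (chromosome 10, 17270240 to 17279592, plus strand) encodes vimentin, the intermediate filament protein of mesenchymal cells. It rose to 12.6 FPKM in HCC1954_siAP2C, against 3.81 FPKM in HCC1954_siNT (3.32-fold, log2 ratio 1.73 ± 0.47 SE, q = 4.25e-03 in the authors' deposited table). With shRNA the direction was the other one, a fall to 0.672 FPKM in HCC1954_shAP2C against 5.46 FPKM in HCC1954_shNT (8.14-fold, log2 ratio -3.02 ± 1.06 SE, q = 1.21e-04 in the authors' deposited table). In SKBR3 the gene was at 0.0123 FPKM in SKBR3_siAP2C and 0.00980 FPKM in SKBR3_siNT and had no completed test. Unlike the matrix genes, VIM differed little between the HCC1954 controls, with HCC1954_shNT 1.43-fold above HCC1954_siNT.

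HMGA2 (chromosome 12, 66218240 to 66360071, plus strand) encodes an architectural chromatin protein of embryonic cells that binds AT-rich DNA and is held down in adult tissue by let-7 microRNAs. Of the 9 members tested in both HCC1954 comparisons, HMGA2 was the only 1 that rose in both. Among all tested genes 2.31% rose with siRNA and 36.3% with shRNA, and the share rising in both was not computed. Its representative transcript NM_003483 was at 4.09 FPKM in HCC1954_siAP2C and 1.25 FPKM in HCC1954_siNT, a 3.28-fold rise (log2 ratio 1.71 ± 0.55 SE, q = 4.25e-03 in the authors' deposited table). With shRNA it was at 81.1 FPKM in HCC1954_shAP2C and 0.505 FPKM in HCC1954_shNT, a 161-fold rise (log2 ratio 7.33 ± 0.77 SE, q = 1.21e-04 in the authors' deposited table). Both HCC1954 controls were low, and the outlying value is that of HCC1954_shAP2C. That transcript held 96.1% of the gene's summed 84.4 FPKM in HCC1954_shAP2C. SKBR3 was listed at 0 in both groups for all 5 transcripts. HMGA2 thus changed in the opposite direction to VIM, FN1 and TGFBI in the stable clones, and in the same direction as VIM, TNC and TGFBI after siRNA.

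The SNAI2 and ZEB1 genes encode zinc finger repressors that bind E-boxes. SNAI2 (chromosome 8, 49830157 to 49834299, minus strand), the gene of SLUG and a marker of basal mammary cells, was at 13.4 FPKM in HCC1954_siAP2C and 6.60 FPKM in HCC1954_siNT. This was a 2.03-fold rise (log2 ratio 1.02 ± 0.42 SE, q = 4.25e-03 in the authors' deposited table). In the stable clones SNAI2 was at 0.201 FPKM in HCC1954_shAP2C and 12.9 FPKM in HCC1954_shNT, a log2 ratio of -6.01 ± 1.72 SE, which was not called (p = 0.175 and q = 0.220 in the authors' deposited table). SKBR3 was listed at 0 in both groups. By contrast, ZEB1 (chromosome 10, 31607424 to 31818742, plus strand) had no completed test for any of its 41 transcripts in any comparison. Summed over them it reached 0.930 FPKM in HCC1954_shAP2C and 0.0281 FPKM in HCC1954_shNT. In the other groups it was at 0.0312 FPKM in HCC1954_siAP2C, 0.0220 FPKM in HCC1954_siNT, 0.00433 FPKM in SKBR3_siAP2C and 0.0142 FPKM in SKBR3_siNT. Its highest level thus lay in the group where CDH1 was the lowest of the HCC1954 groups, though with no test behind it. Over all groups, CDH1 was lowest in SKBR3, at 0.0970 FPKM in SKBR3_siAP2C and 0.0894 FPKM in SKBR3_siNT. ZEB1 was listed lowest there as well, but it was under 0.1 FPKM in each group except HCC1954_shAP2C. Its order among those groups therefore carries little weight, and whether ZEB1 and CDH1 levels are linked was not tested. SNAI2, the other repressor gene, was at its lowest HCC1954 level in HCC1954_shAP2C.

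**Figure D3:**
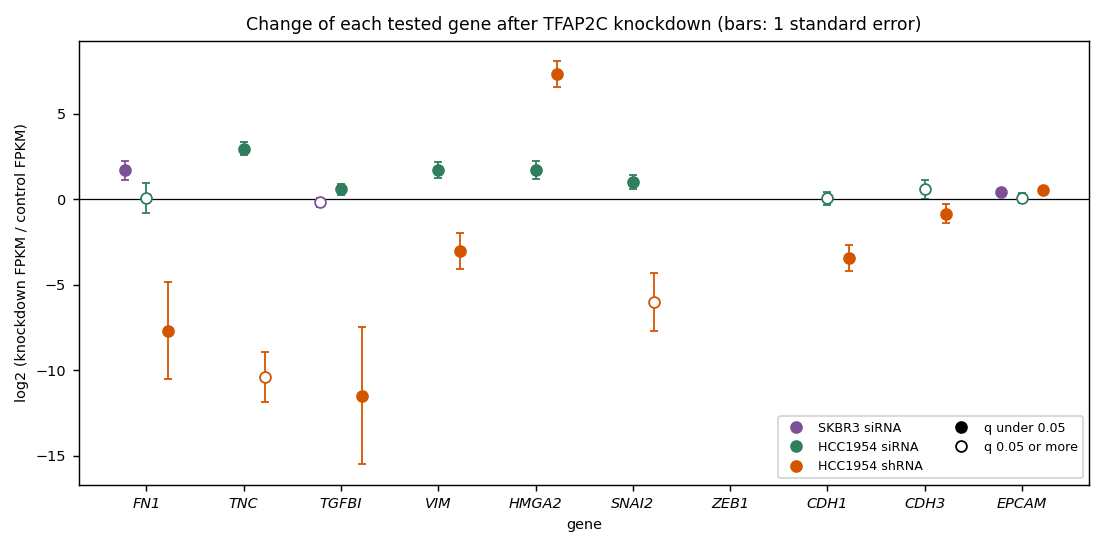
Log2 ratio of knockdown over control FPKM for the representative transcript of each gene, with bars of 1 standard error from the deposited statistic, filled where the deposited q was under 0.05. The statistic does not match the deposited p as a normal score, so bars and calls can disagree. Comparisons without a completed test have no point, which leaves ZEB1 empty. With siRNA in HCC1954 no tested member lies below 0, though FN1, CDH1, CDH3 and EPCAM were not called. With shRNA 7 of 9 lie below 0, of which TNC and SNAI2 were not called. The share of all tested genes on each side of 0 was not computed. Their median log2 ratio was -0.0039 with siRNA in HCC1954 and -0.034 with shRNA.

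Both cadherins, unlike EPCAM, were higher in all HCC1954 groups than in SKBR3, in separately normalized tables and with no test. CDH1 (chromosome 16, 68771195 to 68869440, plus strand) encodes E-cadherin, the main cadherin of epithelial adherens junctions. Summed over 4 transcripts it was at 269 FPKM in HCC1954_siAP2C and 261 FPKM in HCC1954_siNT, at 20.7 FPKM in HCC1954_shAP2C and 149 FPKM in HCC1954_shNT, and at 0.0970 FPKM in SKBR3_siAP2C and 0.0894 FPKM in SKBR3_siNT. SKBR3 is known as a line without E-cadherin. The representative CDH1 transcript NM_004360 fell in the stable clones to 10.9 FPKM in HCC1954_shAP2C, against 116 FPKM in HCC1954_shNT (10.6-fold, log2 ratio -3.41 ± 0.76 SE, q = 1.21e-04 in the authors' deposited table). Of the 4 transcripts tested there 3 fell. With siRNA in HCC1954 the same transcript was at 245 FPKM in HCC1954_siAP2C and 236 FPKM in HCC1954_siNT, not called (log2 ratio 0.05 ± 0.38 SE, q = 0.957 in the authors' deposited table). In the siRNA groups the rises of SNAI2, VIM and TNC therefore stood beside a CDH1 level that was not called as changed.

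CDH3 (chromosome 16, 68670092 to 68761371, plus strand), the neighbour of CDH1, encodes P-cadherin, the cadherin of basal and myoepithelial cells. Over its 3 transcripts it summed to 174 FPKM in HCC1954_siAP2C and 149 FPKM in HCC1954_siNT, and to 50.1 FPKM in HCC1954_shAP2C and 96.1 FPKM in HCC1954_shNT, and was listed at 0 in both SKBR3 groups. With shRNA all 3 transcripts fell, the representative NM_001793 to 31.5 FPKM in HCC1954_shAP2C against 56.0 FPKM in HCC1954_shNT (1.78-fold, log2 ratio -0.83 ± 0.55 SE, q = 1.21e-04 in the authors' deposited table). With siRNA that transcript was at 93.9 FPKM in HCC1954_siAP2C and 62.9 FPKM in HCC1954_siNT, which passed p = 0.0169 but not the adjustment (q = 0.327 in the authors' deposited table). The gene before this pair on the chromosome, ZFP90, was at 2.43 FPKM in SKBR3_siAP2C and 2.68 FPKM in SKBR3_siNT. The genes after it, TANGO6 and HAS3, were at 0.373 and 0.0542 FPKM in SKBR3_siAP2C and at 0.591 and 0.162 FPKM in SKBR3_siNT. In HCC1954_siNT these 3 neighbours were at 14.8, 4.94 and 10.97 FPKM. Genes farther out varied as well: PLA2G15 was at 8.43 FPKM in SKBR3_siNT and 9.82 FPKM in HCC1954_siNT, and VPS4A at 24.8 and 80.8 FPKM. All these genes were chosen after their values were seen, and DNA copy number was not measured.

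EPCAM (chromosome 2, 47572297 to 47614740, plus strand) encodes an epithelial membrane glycoprotein used as a carcinoma marker. It was the steadiest member, at 139 FPKM in SKBR3_siAP2C and 105 FPKM in SKBR3_siNT, at 118 FPKM in HCC1954_siAP2C and 112 FPKM in HCC1954_siNT, and at 161 FPKM in HCC1954_shAP2C and 112 FPKM in HCC1954_shNT. It rose 1.33-fold in SKBR3 (log2 ratio 0.41 ± 0.18 SE, q = 4.41e-04 in the authors' deposited table). With shRNA it rose 1.43-fold (log2 ratio 0.52 ± 0.13 SE, q = 1.21e-04 in the authors' deposited table), in the same clones in which both cadherins fell. With siRNA in HCC1954 it was not called (log2 ratio 0.08 ± 0.29 SE, q = 0.873 in the authors' deposited table).

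Order of the summed levels showed which groups set each pattern. FN1 and TNC ran from HCC1954_shNT at the top (219.9 and 75.3 FPKM) through steps of 8.27-fold for FN1 and 7.15-fold for TNC to the next group, SKBR3_siAP2C for FN1 and HCC1954_siAP2C for TNC. For VIM and SNAI2 the first place was held by HCC1954_siAP2C, with SNAI2 there 1.04-fold above HCC1954_shNT. HMGA2 was 20.2-fold higher in HCC1954_shAP2C than in the next group. CDH1 in HCC1954_siAP2C was 1.03-fold above HCC1954_siNT, and EPCAM in HCC1954_shNT was 1.00-fold that in HCC1954_siNT. With 1 pooled value per group and tables normalized apart, no neighbours in these orders can be said to differ or not beyond the calls given above. In bulk RNA of this kind a lower level can mean fewer cells with the transcript or less of it per cell, and the 2 cannot be told apart.

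Whether changes differed between comparisons was tested directly, as the difference of log2 ratios over its standard error, two-sided, with a normal approximation and Benjamini-Hochberg adjustment over all genes tested in both tables. Since it rests on the deposited statistics of 3 pooled samples a group, its p-values are approximate. The deposited statistic also does not match the deposited p as a normal score. For SNAI2 with shRNA the statistic was -3.50 and p = 0.175 in the authors' deposited table. Errors taken from p are limited too, since the smallest deposited p was 5e-05. Neither error is known to be right, and the counts of members passing depend on which is used. Between shRNA and siRNA in HCC1954, 6 of 9 members passed, against a background of 13.8% of 8634 genes. Computed from the authors' statistics, VIM had a difference of -4.76 ± 1.16 SE (adjusted p = 7.80e-04), CDH1 of -3.46 ± 0.85 SE (adjusted p = 8.83e-04) and HMGA2 of 5.62 ± 0.95 SE (adjusted p = 1.64e-07). TGFBI passed with -12.06 ± 4.04 SE (adjusted p = 0.0253 from the authors' statistics). TNC, at -13.36 ± 1.501 SE, and SNAI2, at -7.03 ± 1.77 SE, passed too by the authors' statistics (adjusted p = 1.39e-16 and 1.20e-03), but no longer when the standard error was taken from their p (adjusted p = 0.0544 and 0.176). By the authors' statistics FN1 missed the threshold (-7.78 ± 2.96 SE, adjusted p = 0.0588) and passed it with the standard error from p (adjusted p = 6.11e-04), as did CDH3 (-1.41 ± 0.80 SE, adjusted p = 0.297 and 2.82e-04) and EPCAM (0.44 ± 0.32 SE, adjusted p = 0.485 and 0.0262). With the standard error from p, 7 of 9 members passed, against a background of 49.3%. Between siRNA in HCC1954 and siRNA in SKBR3, 0 of 3 members passed, 0 at an unadjusted p under 0.05, against a background of 0.505% of 8907 genes. There the difference for FN1 was -1.59, with a 95% interval of -3.64 to 0.45, that for TGFBI 0.75 (-0.026 to 1.53), and that for EPCAM -0.33 (-0.99 to 0.34). With the standard error from the authors' p, 2 of 3 members, FN1 and TGFBI, passed (adjusted p = 0.0323 and 3.47e-03), against a background of 12.4%.

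**Figure D4:**
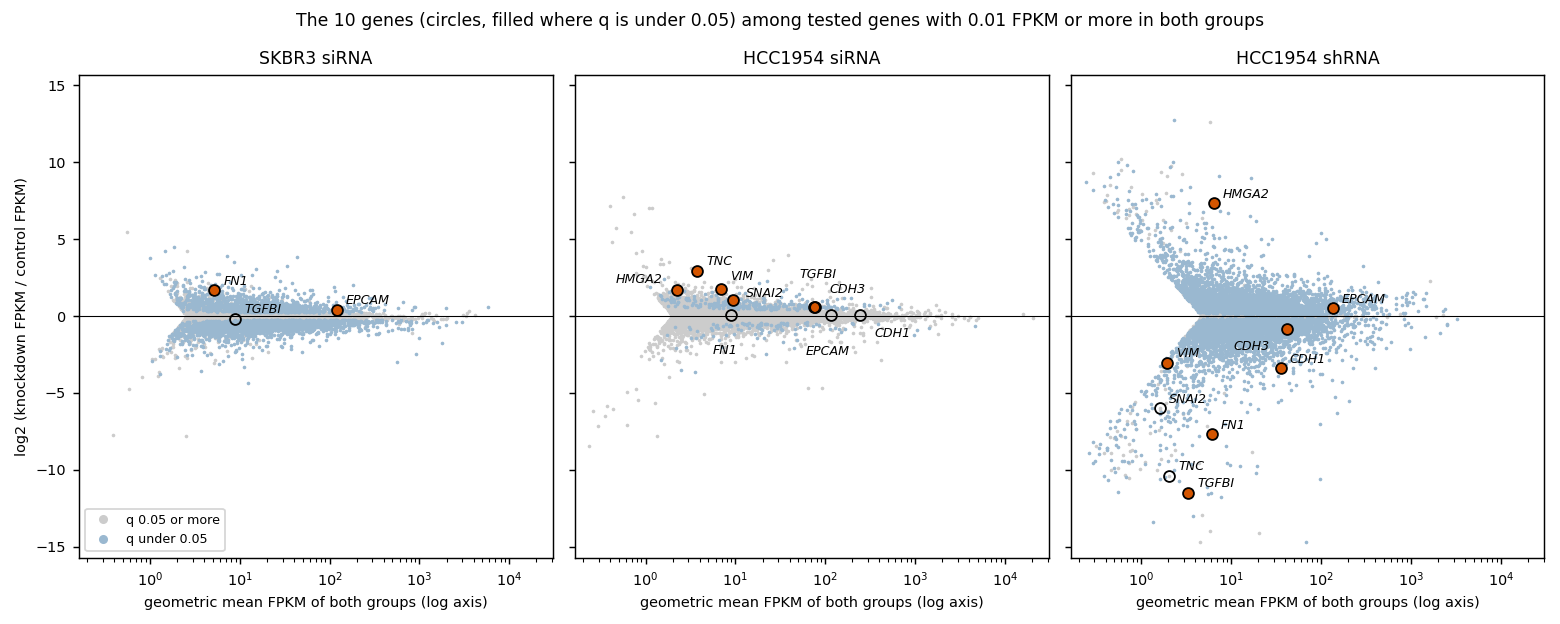
Log2 ratio of knockdown over control against the geometric mean FPKM (log axis) for tested genes with at least 0.01 FPKM in both groups, in the 3 comparisons, with members as circles, filled where the deposited q was under 0.05. TGFBI (filled) and CDH3 (open) lie on each other in HCC1954 siRNA. FN1, TNC, TGFBI and HMGA2 lie at the outer edge of the shRNA cloud, in which 75.4% of genes are called.

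Other regulators of the same programme were read from fixed lists. Each shRNA count below stands against 36.3% rising and 39.2% falling among all genes tested there. Each siRNA count stands against 12.3% rising and 21% falling in SKBR3, and 2.31% and 0.965% in HCC1954. Of the 14 further transcription factors of epithelial-mesenchymal transition, such as the SNAI1, ZEB2 and TWIST genes, 3 were tested in SKBR3 (1 rose, 0 fell), 5 with siRNA in HCC1954 (0 called, 2 higher at an unadjusted deposited p under 0.05) and 5 with shRNA (3 rose, 1 fell). With shRNA, FOXC1 rose to 30.6 FPKM in HCC1954_shAP2C against 12.9 FPKM in HCC1954_shNT, and TCF3, the gene of the E-box factor E2A, rose to 20.5 FPKM against 4.84 FPKM. ETS1 fell to 3.80 FPKM in HCC1954_shAP2C against 16.2 FPKM in HCC1954_shNT. Factors of the epithelial state, such as the GRHL, OVOL and ESRP genes, numbered 9 falling and 2 rising of 11 tested with shRNA, against 39.2% and 36.3% of all tested genes, with a median log2 ratio of -1.62 beside -0.034. GRHL1, a grainyhead factor, fell to 4.10 FPKM in HCC1954_shAP2C against 43.8 FPKM in HCC1954_shNT, and ELF3 to 21.2 FPKM against 165 FPKM. With siRNA in HCC1954 0 of 11 were called (1 higher at an unadjusted deposited p under 0.05). In SKBR3 3 rose and 1 fell of 11, with KLF5 rising to 25.2 FPKM in SKBR3_siAP2C against 10.6 FPKM in SKBR3_siNT and ELF3 to 227 FPKM against 174 FPKM. With shRNA KLF5, like ELF3, fell, to 10.4 FPKM in HCC1954_shAP2C against 76.4 FPKM in HCC1954_shNT.

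Interstitial matrix and mesenchymal genes beside the members rose in 3 and fell in 0 of 10 tested cases with siRNA in HCC1954. Among all genes tested there 2.31% rose and 0.965% fell. The median log2 ratio of the list was 0.46 beside -0.0039 over all tested genes. THBS1, the gene of a thrombospondin, was at 41.4 FPKM in HCC1954_siAP2C and 23.1 FPKM in HCC1954_siNT, and LOXL2, of a lysyl oxidase, was at 16.3 FPKM in HCC1954_siAP2C and 11.3 FPKM in HCC1954_siNT. In SKBR3 4 rose and 1 fell of 10, the riser TAGLN to 4.49 FPKM in SKBR3_siAP2C against 1.44 FPKM in SKBR3_siNT. S100A4 fell there to 388 FPKM in SKBR3_siAP2C against 2189 FPKM in SKBR3_siNT. With shRNA 6 rose and 7 fell of 13, so the list had no single direction. S100A4, which fell in SKBR3, rose here to 646 FPKM in HCC1954_shAP2C against 15.4 FPKM in HCC1954_shNT. CALD1, the gene of caldesmon, rose to 42.8 FPKM in HCC1954_shAP2C against 1.26 FPKM in HCC1954_shNT, and THBS1 fell to 2.65 FPKM against 42.0 FPKM. Receptors and relatives of fibronectin and tenascin rose in 5 and fell in 1 of 8 cases in SKBR3, against 12.3% and 21% of all tested genes. ITGA5, a subunit of the main fibronectin receptor, was at 4.59 FPKM in SKBR3_siAP2C and 2.71 FPKM in SKBR3_siNT. These receptors and relatives were called in 0 of 8 cases with siRNA in HCC1954 (1 higher at an unadjusted deposited p under 0.05). With shRNA 1 of them rose and 5 fell of 8. SDC4, the syndecan that acts with integrins on fibronectin, fell to 38.5 FPKM in HCC1954_shAP2C against 201 FPKM in HCC1954_shNT.

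Partners of the cadherins were read in the same way. Of 10 tested catenin and junction genes 8 fell and 1 rose with shRNA, where 39.2% of all tested genes fell and 75.4% were called, with a median log2 ratio of -0.52 beside -0.034. VCL, of vinculin, fell to 33.4 FPKM in HCC1954_shAP2C against 85.8 FPKM in HCC1954_shNT, and CTNND1, of p120 catenin, to 43.6 FPKM against 80.1 FPKM. With siRNA 0 of 9 were called in HCC1954 (1 higher at an unadjusted deposited p under 0.05), and 3 rose and 2 fell of 9 in SKBR3, where NECTIN1 was at 15.3 FPKM in SKBR3_siAP2C and 33.3 FPKM in SKBR3_siNT. Among the 11 other cadherins 1 was tested in each comparison, and it was not called in any (0 at an unadjusted deposited p under 0.05). Among genes tied to EPCAM, 8 of 11 tested fell and 1 rose with shRNA, against the direction of EPCAM itself. SPINT1, the gene of a membrane protease inhibitor, fell to 26.8 FPKM in HCC1954_shAP2C against 119 FPKM in HCC1954_shNT. With siRNA in HCC1954 1 of 12 tested genes tied to EPCAM rose and 0 fell. In SKBR3 2 rose and 2 fell of 11, with FHL2, of a LIM domain protein that binds the EPCAM tail, at 37.2 FPKM in SKBR3_siAP2C and 12.4 FPKM in SKBR3_siNT. PSEN2, of a presenilin, fell to 9.20 FPKM in SKBR3_siAP2C against 13.8 FPKM in SKBR3_siNT. HMGA2 relatives and genes of the let-7 axis gave 2 rising and 1 falling of 3 tested with shRNA. HMGA1 was at 704 FPKM in HCC1954_shAP2C and 321 FPKM in HCC1954_shNT, and IGF2BP3, a let-7 target, at 19.6 and 2.36 FPKM. Of these 0 of 2 in SKBR3 and 0 of 4 with siRNA in HCC1954 were called (0 and 1 higher at an unadjusted deposited p under 0.05). Among 10 other intermediate filament and linker genes, 1 was tested in SKBR3 (not called, 0 at an unadjusted deposited p under 0.05), 2 with siRNA in HCC1954 (1 rose, 0 fell) and 2 with shRNA (1 rose, 1 fell). PLEC, the gene of the linker plectin, rose to 16.6 FPKM in HCC1954_siAP2C against 7.85 FPKM in HCC1954_siNT and fell to 8.22 FPKM in HCC1954_shAP2C against 21.95 FPKM in HCC1954_shNT. NES, the gene of nestin, named after its values were seen, rose to 12.2 FPKM in HCC1954_shAP2C against 0.0433 FPKM in HCC1954_shNT (q = 0.0135 in the authors' deposited table).

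Likeness of patterns was measured as the root mean square difference of log2(summed FPKM + 0.1), each gene centred on its own mean, over the 6 groups and 15065 genes. CDH1 and CDH3 were the closest pair of members (0.78 log2 units), and for CDH1 only 3 genes came closer than CDH3: KLK8 (0.21), OSMR (0.36) and LGALS3 (0.38). SNAI2 and VIM followed (0.81 log2 units). The genes nearest to VIM were FGFBP1 (0.39), FOXQ1 (0.45) and PELI2 (0.49), and those nearest to SNAI2 were RNASE7 (0.38), MMP7 (0.40) and TCN1 (0.47). KYNU (0.30) lay closest to TGFBI, SERPINB3 (0.58) to TNC, ZC3H12A (0.59) to FN1, MSN (0.59) to CDH3, APOBEC3C (0.72) to HMGA2 and BID (0.042) to EPCAM. ZEB1 did not reach 1 FPKM in any group and was left out. These distances rest on 6 pooled values in which the contrast of the lines and of HCC1954_shAP2C weighs most.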

How the data were processed

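RNA-seq covered 24 breast carcinoma samples, put into 8 groups of 3 by their titles. The submitters' processing notes list Bowtie 0.12.2 and Cuffdiff, with hg19 and GRCh37 as builds. The deposited tables hold 1 FPKM value per RefSeq accession and group, pooled by the authors, with a test statistic, a score of the authors' tool, and a p-value and q-value of the authors, per the file headers. Values of single samples were not analysed here, so no model was fitted and depth, replicate spread and precision of single values are unknown. Of 66321 accessions 65468 matched a symbol in a RefSeq table (GRCh38.p14, for names alone) and 853 did not. FPKM was summed per symbol. Calls come from the accession of highest FPKM averaged across 6 groups, with q under 0.05 and a completed test. The smallest deposited p was 5e-05. Differences between comparisons used a normal z with standard errors from the deposited statistic, or from p as an alternative. The script was tested on simulated normal data drawn with the standard errors from the statistic. Such data check the computation alone and cannot show whether those errors suit the deposited values. Entries listed at 0 in a group have no ratio and left that test. Positions are GRCh37 (GENCODE). All 10 genes are named, with TFAP2C. Of each fixed list up to 3 called genes with the largest log2 ratio and at least 1 FPKM in both groups could be named, and the genes with the 3 most similar patterns per member. Some genes named by this rule are not reported here. The genes and lists were chosen with earlier results of these data known. Python 3.11.15, pandas 2.3.3, numpy 2.4.6, scipy 1.17.1 and matplotlib 3.10.9 were used.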

Additional observations from a re-analysis of the deposited data

Results flagged for a closer look

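For 6 genes the change with shRNA differed from the change with siRNA in HCC1954 by the test of the difference itself, in log2 units of shRNA minus siRNA: VIM by -4.76, TNC by -13.36, SNAI2 by -7.03, HMGA2 by 5.62, TGFBI by -12.06 and CDH1 by -3.46. These differences used errors from the deposited statistic, which does not match the deposited p as a normal score. TNC and SNAI2 were not called with shRNA in the authors' deposited table, and their differences missed the threshold when their errors were derived from p. HCC1954_shAP2C and HCC1954_shNT differed in 75.4% of tested genes, and the part of this in the differences was not tested.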

How the results depend on the processing

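Counts of rising and falling members kept within 1.5 times their value under a q threshold of 0.01, another choice of accession, adjustment over representative accessions alone, a filter of 1 FPKM and, an alternative chosen after seeing the data, a call in any accession. With a log2 ratio of at least 1 in size required, 1 member rose in SKBR3 (EPCAM was lost) and 1 with shRNA (EPCAM again). Under this rule 4 members rose with siRNA in HCC1954 (TGFBI was lost) and 4 fell with shRNA (CDH3 was lost). When errors were derived from the deposited p-values, 2 members differed between HCC1954 and SKBR3 siRNA, against 0. No log2 ratio of a called member changed sign under any alternative. Of 21 ratios 6 moved by more than 1 standard error with a pseudocount of 1 and 1 with 0.1, all in genes near or below 1 FPKM in a group. The median log2 ratio of tested genes in SKBR3 was -0.10, and ratios there can be read relative to it. Leaving out a replicate could not be done, since samples are pooled. No paired analysis was possible because no column carries a replicate number. Depth is unknown, so what it limits could not be given.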
